A study of Mus musculus with 9 samples.

Results

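The genes described here are 55 genes of mitosis and of the G2/M transition, taken by gene name from a table of 56748 genes, and all 55 were found there. They were measured by RNA sequencing in RAW264.7, an established mouse macrophage line derived from a virus-induced tumour, whose cells divide continuously in culture. The 9 libraries fall into 3 groups of 3. The P-Mn/TI@mHSA group received nanoparticles that carry nanoenzymes (materials with enzyme-like activity) and an inhibitor of TRAF6, a ubiquitin ligase of Toll-like receptor signalling. The P-Mn@mHSA group received such particles without the inhibitor, and the PBS group received the saline buffer alone as the control of the model. All 3 groups were under a model condition left unnamed by the labels, which give no dose or time either. The labels speak of triplicates without saying that these were separate cultures, so the spread that the p-values rest on may be technical. Both comparisons with PBS use the same 3 PBS libraries and are not independent of each other.

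A cell enters mitosis when cyclin B and the kinase CDK1 become active. Condensin then compacts the chromosomes, kinetochores attach them to spindle microtubules, and a checkpoint holds the cell until every chromosome is attached, after which the anaphase-promoting complex and separase let the sister chromatids part. Most of these genes are transcribed late in the cycle: in resting cells the DREAM complex represses many of them through a short promoter element, the CHR, and in dividing cells B-MYB, FOXM1 and the CCAAT-binding factor NF-Y activate them. Macrophages in tissue mostly rest outside the cycle, whereas RAW264.7 cells cycle.

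With both kinds of particle, some of these genes fell and others rose. The motor and tether proteins of the kinetochore (Cenpe, Cenpf), the condensin ATPases (Smc2, Smc4), the proliferation marker Mki67 and most spindle proteins were lower than with PBS, up to 3.89-fold with P-Mn/TI@mHSA and 3.93-fold with P-Mn@mHSA, both for Cenpe. Other genes of the same phase were higher, among them the kinases Plk1 and Aurkb, cyclin Ccnb2 and the condensin subunit Ncapd2, at most 1.6-fold with P-Mn/TI@mHSA and 1.3-fold with P-Mn@mHSA. With P-Mn/TI@mHSA against PBS, 28 members were lower, 17 higher and 10 not called (edgeR's quasi-likelihood test, Benjamini-Hochberg adjusted p under 0.05 over all genes tested). Of all 12454 genes tested, 27.3% were lower and 27.1% higher in that comparison (54.4% in either direction). With P-Mn@mHSA against PBS, 32 members were lower, 9 higher and 14 not called. Of all genes, 24.1% were lower and 24.3% higher there (48.5% in either direction). The counts by role below rest on few members and are to be read beside these shares of all genes. The members' median log2 fold change was -0.15 with P-Mn/TI@mHSA and -0.25 with P-Mn@mHSA, against -0.006 and -0.002 over all genes. Changes of 1.5-fold or more were mostly falls. They numbered 17 lower and 2 higher members with P-Mn/TI@mHSA (15% and 7.94% of all genes), and 15 lower and 0 higher with P-Mn@mHSA (12.2% and 6.97% of all genes). Every P-Mn/TI@mHSA library lay below every PBS library in 27 members (30.7% of all genes) and above in 19 (30.9%). For P-Mn@mHSA these numbers were 33 members below (27.4% of all genes) and 8 above (27.3%). The direction went with the base composition of the transcripts: members that fell had a lower median GC content than members that rose, with ranges that overlapped, as a later paragraph gives in numbers. The fit was therefore repeated with each library's trend of level against GC content removed, an alternative chosen after seeing the data, and calls that this ended are named beside each gene group. Calls lost when 1 library was left out are given with that library and, in brackets, the log2 fold change without it. In bulk RNA, fewer cells in mitosis and less RNA per cell cannot be told apart.

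**Figure D1:**
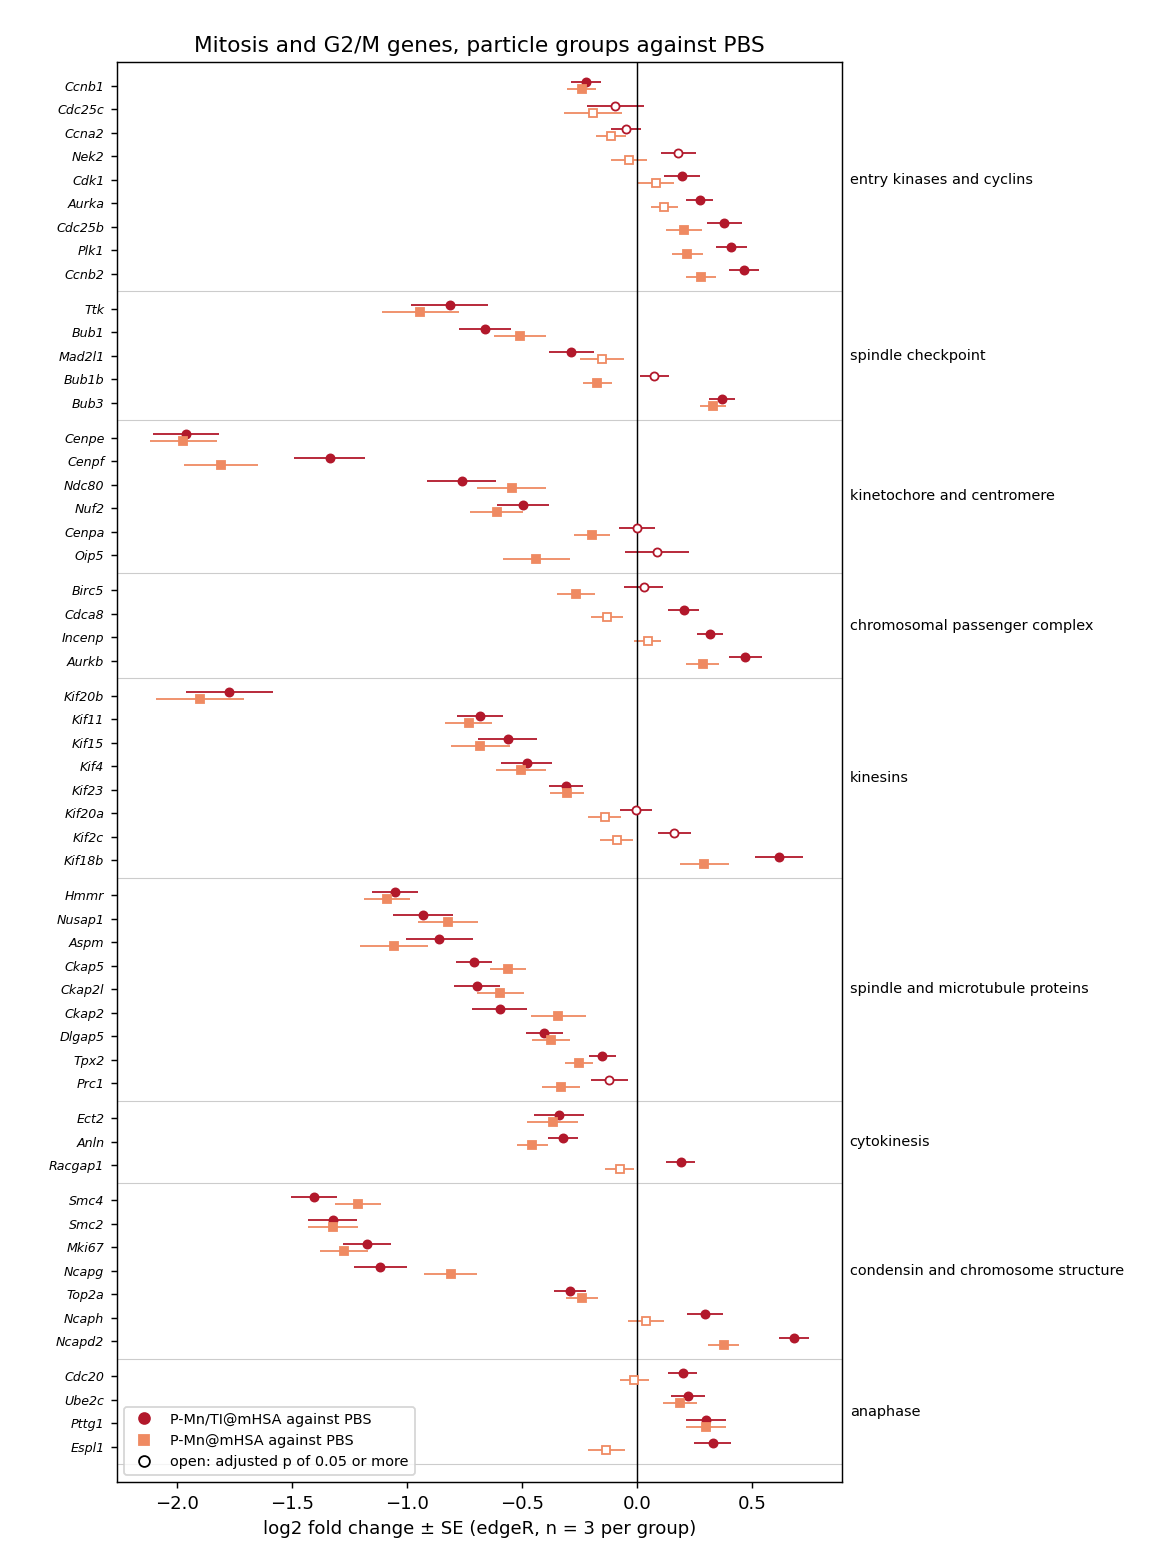
Log2 fold change against PBS (x axis, points with standard error) of each of the 55 members, grouped by role down the y axis, for P-Mn/TI@mHSA and for P-Mn@mHSA; filled points have an adjusted p under 0.05 (edgeR, n = 3 per group). The values run from -1.96 to 0.68 with P-Mn/TI@mHSA and from -1.97 to 0.38 with P-Mn@mHSA, and members of the spindle and kinetochore groups lie mostly left of 0.

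The libraries held 13994570 to 15543439 counts, and all 55 members passed the filter on low counts. The smallest count of any member in any library was 61, for Kif20b. All 8 macrophage markers exceeded 1 CPM in every library, with summed levels of 4140 to 4510 CPM with P-Mn/TI@mHSA, 3910 to 4190 with P-Mn@mHSA and 4760 to 4940 with PBS. Summed markers of T cells, B cells, fibroblasts and epithelium were at most 0.542 CPM in any library. The 3 endothelial markers summed to 3.15 to 6.79 CPM with P-Mn/TI@mHSA, 4.54 to 5.82 with P-Mn@mHSA and 3.17 to 4.74 with PBS, and only Pecam1, which macrophages also carry, exceeded 1 CPM throughout. Levels below are CPM, library-size-scaled counts after TMM normalization, listed for replicates 1, 2 and 3 of each group. Summed over the 55 members, the level was 4245, 4261 and 4423 CPM with P-Mn/TI@mHSA and 4007, 3849 and 3833 CPM with P-Mn@mHSA, against 4310, 4410.1 and 4219 CPM with PBS. The 3 sums with P-Mn@mHSA lay below all others, while those with P-Mn/TI@mHSA overlapped those with PBS.

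The promoters are shown because the same motif letters were found in genes that fell and in genes that rose. RefSeq (GRCm38.p6) has a promoter, from 250 bases before to 50 after the annotated start, for 47 of the 55 members. No entry was matched for Ccna2, Tpx2, Smc4, Kif20a, Aurkb, Incenp, Cdc25c and Dlgap5. A gene with more than 1 window counts if any of them holds the motif. The CHR letters TTTGAA or TTCGAA, on either strand, were present in 38 of the 47 members (80.9%), against 5854 of 27025 RefSeq genes (21.7%). The CCAAT box, also on either strand, was in 36 members (76.6%), against 41.1% of all genes, and both motifs were in 33 (70.2%), against 9.65% of all genes. The motifs can overlap by at most 1 letter, and a match is a description of the letters, not of binding. Among members lower with P-Mn/TI@mHSA, 20 of 25 with a window held the CHR letters, and among members higher, 13 of 15 did. With P-Mn@mHSA the numbers were 24 of 29 for members lower and 7 of 8 for members higher. The CCAAT box was in 72% of members lower and 86.7% of members higher with P-Mn/TI@mHSA, and in 75.9% and 87.5% with P-Mn@mHSA. Both motifs together were in 64% of members lower and 86.7% of members higher with P-Mn/TI@mHSA, and in 69% and 87.5% with P-Mn@mHSA. These shares rest on few genes and were not tested against each other. The 100 bases before the start follow for the 3 members lowest and the 3 highest with P-Mn/TI@mHSA against PBS, out of the 11 changed members that have a single RefSeq window and CHR letters within that stretch. Bub3, which was also higher, has 2 windows in RefSeq and is left out for that reason. Each reads 5′ to 3′ on the strand of the gene and ends at the base before the start, with the CHR letters and CCAAT boxes in capitals (TTCAAA and ATTGG are the same motifs on the other strand).
Mki67: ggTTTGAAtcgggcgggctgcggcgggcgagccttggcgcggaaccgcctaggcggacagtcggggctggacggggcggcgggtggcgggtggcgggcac
Ncapg: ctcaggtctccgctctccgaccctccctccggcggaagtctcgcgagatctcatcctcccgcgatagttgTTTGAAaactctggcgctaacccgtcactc
Ckap5: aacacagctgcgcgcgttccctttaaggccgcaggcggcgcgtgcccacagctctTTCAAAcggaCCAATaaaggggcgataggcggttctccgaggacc
Cdc20: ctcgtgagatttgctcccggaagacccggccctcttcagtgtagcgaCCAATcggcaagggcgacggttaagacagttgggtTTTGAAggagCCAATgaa
Ube2c: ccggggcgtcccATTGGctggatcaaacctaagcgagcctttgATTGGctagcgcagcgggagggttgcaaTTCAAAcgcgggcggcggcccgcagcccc
Espl1: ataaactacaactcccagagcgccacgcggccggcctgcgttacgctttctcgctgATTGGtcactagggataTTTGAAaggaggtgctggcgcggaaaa

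The first 3 sequences belong to genes that fell and the last 3 to genes that rose with P-Mn/TI@mHSA. In GRCm38.p6 they are Mki67 at chr7:135716380-135716479 on the minus strand, Ncapg at chr5:45669825-45669924 on the plus strand, Ckap5 at chr2:91526662-91526761 on the plus strand, Cdc20 at chr4:118437344-118437443 on the minus strand, Ube2c at chr2:164769829-164769928 on the plus strand, Espl1 at chr15:102296193-102296292 on the plus strand. The Mki67 stretch holds the CHR letters near its far end, and that of Ncapg holds them closer to the start, neither with a CCAAT box inside the stretch. The stretches of Ckap5, Cdc20, Ube2c and Espl1 hold both motifs.

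**Figure D2:**
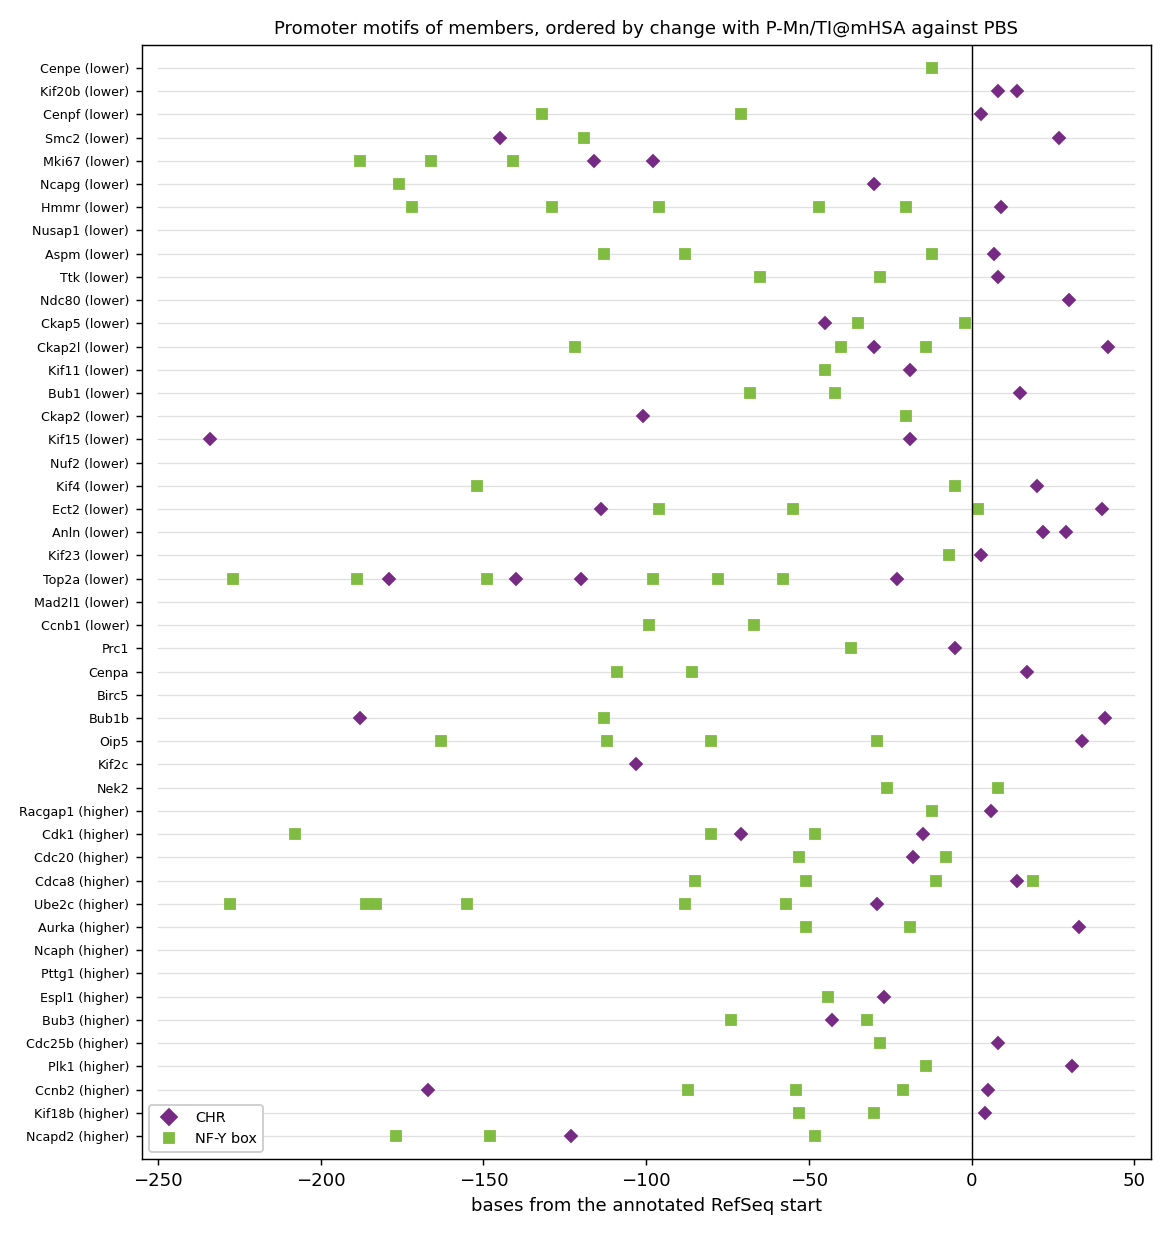
Positions of CHR letters and of CCAAT boxes (the motif bound by NF-Y) on either strand, in bases from the annotated RefSeq start (x axis), in the 47 members with a promoter window, from the lowest log2 fold change with P-Mn/TI@mHSA against PBS at the top to the highest at the bottom. The words beside each gene give its call, and both motifs occur in members that were lower and in members that were higher.

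Genes of condensin and chromosome structure moved in both directions. Of its 7 members, 5 were lower and 2 higher with P-Mn/TI@mHSA, and 5 were lower, 1 higher and 1 not called with P-Mn@mHSA. The number higher was close to the share of all genes with P-Mn/TI@mHSA and under it with P-Mn@mHSA. Smc2 and Smc4 encode the paired ATPases that form the condensin ring. Smc2 had 18.3, 21.8 and 21.2 CPM with P-Mn/TI@mHSA and 20.4, 21.9 and 19.1 CPM with P-Mn@mHSA, against 53.3, 57.2 and 43.2 CPM with PBS. All 6 particle libraries lay below all PBS libraries, with a log2 fold change of -1.32 ± 0.11 with P-Mn/TI@mHSA (SE; edgeR adjusted p = 1.96e-09) and -1.32 ± 0.11 with P-Mn@mHSA (adjusted p = 2.24e-09). Smc4 had 22.3, 24.6 and 22.2 CPM with P-Mn/TI@mHSA and 25.6, 26.4 and 26.9 CPM with P-Mn@mHSA, against 65.04, 67.5 and 50.6 CPM with PBS. It was 2.65-fold lower with P-Mn/TI@mHSA (adjusted p = 3.09e-10) and 2.32-fold lower with P-Mn@mHSA (adjusted p = 2.67e-09), again with no overlap with PBS. Ncapg, a HEAT-repeat subunit of condensin I, had 15.8, 19.1 and 20.3 CPM with P-Mn/TI@mHSA and 22.1, 26.7 and 19.4 CPM with P-Mn@mHSA, against 42.97, 39.01 and 37.8 CPM with PBS. Its log2 fold change was -1.12 ± 0.12 with P-Mn/TI@mHSA and -0.81 ± 0.11 with P-Mn@mHSA, and with the GC trend removed these shrank to -0.24 (adjusted p = 0.0351) and -0.18, where the second was no longer called (adjusted p = 0.112). Its GC content, 34.8%, was the lowest of the 55 members. Ncapd2, the other HEAT-repeat subunit of condensin I, had 295, 286 and 285 CPM with P-Mn/TI@mHSA and 236, 216 and 248 CPM with P-Mn@mHSA, against 168, 194 and 178 CPM with PBS. It rose in both comparisons, by 0.68 ± 0.0663 on the log2 scale with P-Mn/TI@mHSA (adjusted p = 2.7e-08) and 0.38 ± 0.0664 with P-Mn@mHSA (adjusted p = 8.03e-05), and the 3 groups did not overlap. Ncaph, the kleisin that closes the condensin I ring, had 77.9, 78.4 and 79.99 CPM with P-Mn/TI@mHSA and 71.4, 61.4 and 64.99 CPM with P-Mn@mHSA, against 58.7, 64.98 and 68.9 CPM with PBS. It rose with P-Mn/TI@mHSA by 0.30 ± 0.0774 and was not called with P-Mn@mHSA (0.04 ± 0.078, adjusted p = 0.713). The subunits of condensin I thus moved unequally. Per gene length, the level of Ncapd2 was 14.1, 11.5 and 11.7 times that of Smc2 with P-Mn/TI@mHSA. It was 10.1, 8.61 and 11.4 times with P-Mn@mHSA, against 2.75, 2.97 and 3.61 times with PBS. Ncapd2 had a GC content of 54.0% and Smc2 of 39.7%. With the GC trend removed, their log2 fold changes were 0.549 and -0.675 with P-Mn/TI@mHSA and 0.275 and -0.852 with P-Mn@mHSA. All were smaller in size than without that step, and the ratio was not recomputed. Mki67, the Ki-67 protein that coats mitotic chromosomes and marks dividing cells, had 63.01, 69.7 and 55.7 CPM with P-Mn/TI@mHSA and 64.1, 54.5 and 56.9 CPM with P-Mn@mHSA, against 139, 169 and 118 CPM with PBS. It was 2.26-fold lower with P-Mn/TI@mHSA (adjusted p = 7.66e-09) and 2.42-fold lower with P-Mn@mHSA (adjusted p = 2.72e-09). Top2a, the topoisomerase that untangles sister chromatids, was lower by less, at 0.816 times the PBS level with P-Mn/TI@mHSA and 0.847 times with P-Mn@mHSA. Its log2 fold changes were 0.11 and 0.05 with the GC trend removed, and neither was called. The call of Top2a with P-Mn@mHSA was also lost without PBS replicate 2 (-0.19).

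At the kinetochore and centromere, 4 of 6 members were lower and 0 higher with P-Mn/TI@mHSA, and 6 of 6 were lower with P-Mn@mHSA. Cenpe, the kinesin that carries chromosomes to the spindle equator, had 7.39, 11.1 and 9.78 CPM with P-Mn/TI@mHSA and 7.99, 10.6 and 9.45 CPM with P-Mn@mHSA, against 35.3, 42.5 and 32.3 CPM with PBS. This was the largest fall among the 55 members in both comparisons, with a log2 fold change of -1.96 ± 0.14 with P-Mn/TI@mHSA (adjusted p = 4.41e-10) and -1.97 ± 0.15 with P-Mn@mHSA (adjusted p = 4.38e-10). Cenpf, a large protein of the outer kinetochore, had 9.55, 9.85 and 10.7 CPM with P-Mn/TI@mHSA and 5.69, 9.003 and 7.03 CPM with P-Mn@mHSA, against 24.3, 30.8 and 21.1 CPM with PBS. Both particle groups lay below PBS, by 2.53-fold with P-Mn/TI@mHSA and 3.51-fold with P-Mn@mHSA. Its 3 libraries with P-Mn/TI@mHSA lay above the 3 with P-Mn@mHSA, a difference that was not called (0.47 ± 0.17 on the log2 scale, adjusted p = 0.121). Ndc80 and Nuf2 encode a pair of coiled-coil proteins that grip microtubule ends together. Ndc80 had 10.9, 10.3 and 7.97 CPM with P-Mn/TI@mHSA and 10.8, 10.7 and 12.5 CPM with P-Mn@mHSA, against 17.8, 18.4 and 13.4 CPM with PBS. Nuf2 had 22.6, 22.1 and 20.8 CPM with P-Mn/TI@mHSA and 22.3, 20.6 and 17.5 CPM with P-Mn@mHSA, against 29.01, 35.9 and 27.5 CPM with PBS. In both genes every particle library lay below every PBS library, and the log2 fold changes were -0.76 ± 0.15 and -0.50 ± 0.11 with P-Mn/TI@mHSA and -0.55 ± 0.15 and -0.61 ± 0.12 with P-Mn@mHSA. None of these 4 values was called with the GC trend removed. Oip5, which helps load the centromeric histone, had 9.15, 10.3 and 9.92 CPM with P-Mn/TI@mHSA and 6.91, 7.26 and 6.25 CPM with P-Mn@mHSA, against 9.49, 8.95 and 9.25 CPM with PBS. It fell with P-Mn@mHSA (-0.44 ± 0.15, adjusted p = 0.016), whereas P-Mn/TI@mHSA overlapped PBS (0.09 ± 0.14, adjusted p = 0.628). The call with P-Mn@mHSA was lost without P-Mn@mHSA replicate 3 (-0.38) and when the GC trend was removed (adjusted p = 0.206). Cenpa, the centromeric histone itself, was 0.872 times the PBS level with P-Mn@mHSA (adjusted p = 0.0422) and 0.999 times with P-Mn/TI@mHSA (adjusted p = 0.984). The first call was lost with the GC trend removed (adjusted p = 0.0942) and without P-Mn/TI@mHSA replicate 1 (-0.19), P-Mn@mHSA replicate 2 (-0.17), P-Mn@mHSA replicate 3 (-0.15), PBS replicate 1 (-0.12) or without PBS replicate 2 (-0.22).

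**Figure D3:**
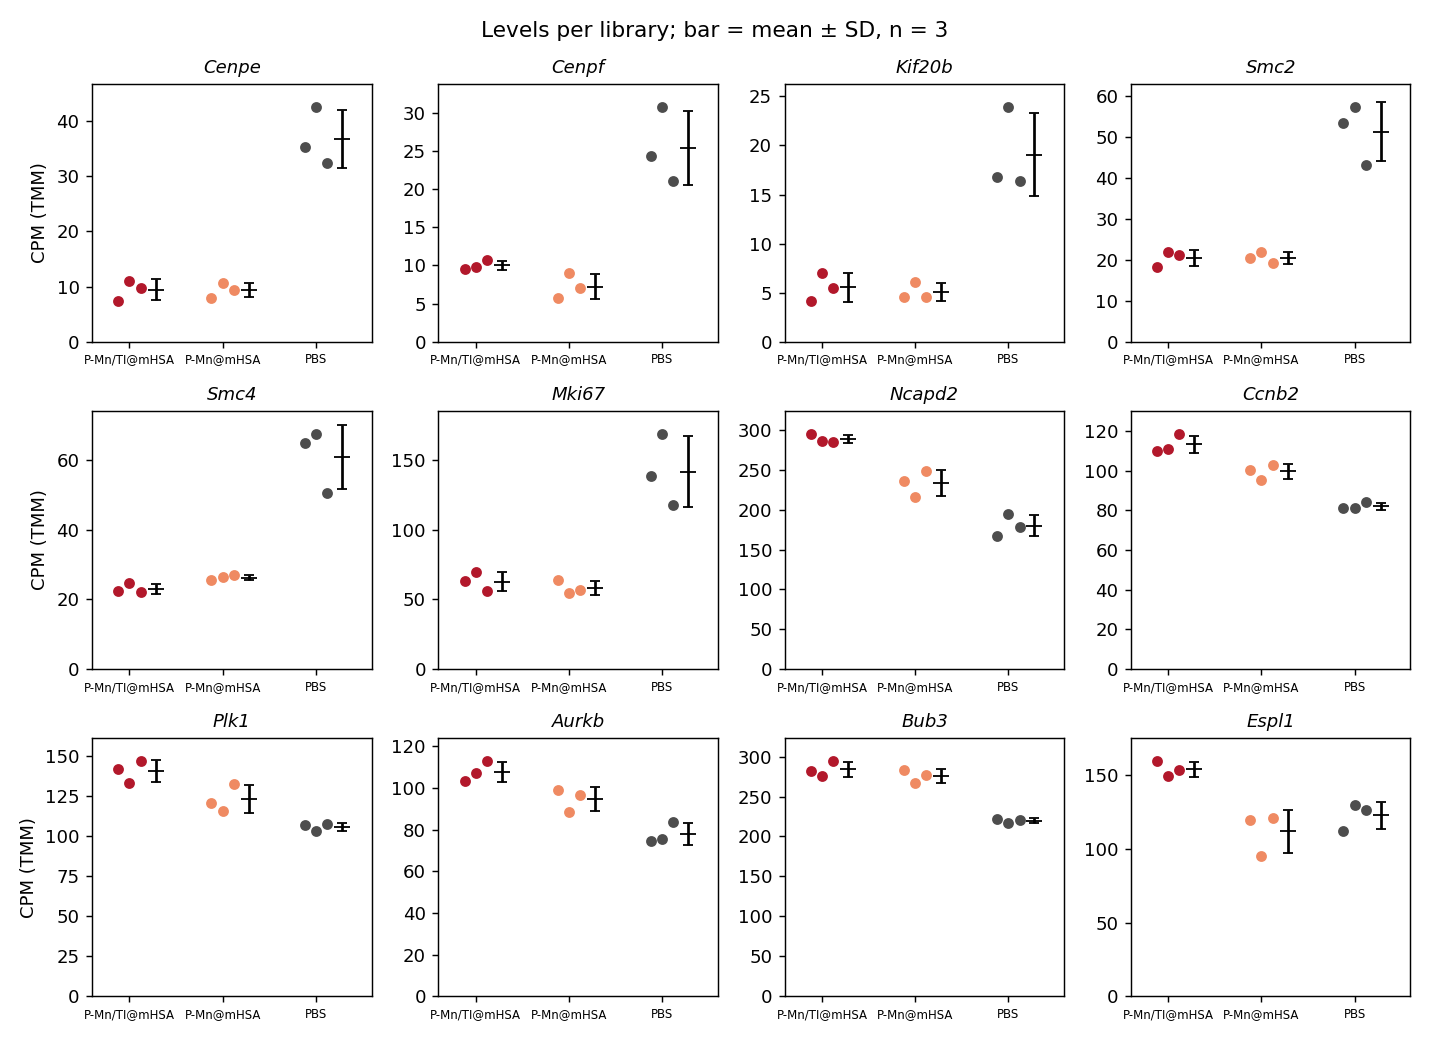
CPM after TMM scaling (y axis, from 0) in each of the 9 libraries for 12 members, with points for libraries and a bar for mean ± SD (n = 3 per group). In Cenpe, Cenpf, Kif20b, Smc2, Smc4 and Mki67 all 6 particle libraries lie below the 3 PBS libraries; in Ncapd2, Ccnb2, Plk1, Aurkb and Bub3 they lie above; in Espl1 the P-Mn/TI@mHSA libraries lie above both other groups.

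Spindle and microtubule proteins were lower almost without exception, 8 of 9 with P-Mn/TI@mHSA and 9 of 9 with P-Mn@mHSA, and 0 were higher in either. Hmmr, a spindle pole protein also known as a hyaluronan receptor, had 19.5, 18.9 and 20.4 CPM with P-Mn/TI@mHSA and 19.9, 19.1 and 18.3 CPM with P-Mn@mHSA, against 40.8, 45.3 and 35.9 CPM with PBS. It was 2.07-fold lower with P-Mn/TI@mHSA (adjusted p = 2e-08) and 2.13-fold lower with P-Mn@mHSA (adjusted p = 1.51e-08). Nusap1, which bundles spindle microtubules, had 12.7, 15.1 and 14.1 CPM with P-Mn/TI@mHSA and 14.7, 18.3 and 12.2 CPM with P-Mn@mHSA, against 26.3, 28.7 and 24.98 CPM with PBS. Its log2 fold change was -0.93 ± 0.13 with P-Mn/TI@mHSA and -0.82 ± 0.13 with P-Mn@mHSA, and the particle groups did not reach the PBS range. Aspm, which focuses the spindle poles and is mutated in human microcephaly, had 15.5, 15.1 and 11.9 CPM with P-Mn/TI@mHSA and 14.4, 11.7 and 10.9 CPM with P-Mn@mHSA, against 28.9, 28.1 and 20.2 CPM with PBS. It was lower by 1.82-fold with P-Mn/TI@mHSA and 2.08-fold with P-Mn@mHSA. Ckap5, a microtubule polymerase, had 61.3, 61.3 and 66.3 CPM with P-Mn/TI@mHSA and 73.99, 72.5 and 62.6 CPM with P-Mn@mHSA, against 100.3, 111 and 97.98 CPM with PBS. It was 1.64-fold lower with P-Mn/TI@mHSA and 1.48-fold lower with P-Mn@mHSA. The related spindle proteins Ckap2 and Ckap2l were also lower. Ckap2 had 13.9, 20.1 and 18.3 CPM with P-Mn/TI@mHSA and 20.3, 21.8 and 20.2 CPM with P-Mn@mHSA, against 27.8, 26.7 and 24.7 CPM with PBS. Ckap2l had 19.9, 20.9 and 21.6 CPM with P-Mn/TI@mHSA and 23.5, 24.1 and 19.4 CPM with P-Mn@mHSA, against 32.6, 35.9 and 32.8 CPM with PBS. Their log2 fold changes were -0.60 ± 0.12 and -0.70 ± 0.10 with P-Mn/TI@mHSA and -0.34 ± 0.12 and -0.60 ± 0.10 with P-Mn@mHSA; with the GC trend removed Ckap2 was called in neither comparison and Ckap2l in both. The call of Ckap2 with P-Mn@mHSA was also lost without P-Mn@mHSA replicate 1 (-0.32), P-Mn@mHSA replicate 3 (-0.32), PBS replicate 1 (-0.31) or without PBS replicate 2 (-0.33). Dlgap5, which stabilises microtubules near chromosomes, was 0.756 times the PBS level with P-Mn/TI@mHSA and 0.771 times with P-Mn@mHSA, and Tpx2, the activator of Aurora A, was 0.9 and 0.838 times. The call of Tpx2 with P-Mn/TI@mHSA was lost with the GC trend removed (adjusted p = 0.463) and without P-Mn/TI@mHSA replicate 1 (-0.12), P-Mn/TI@mHSA replicate 3 (-0.16), P-Mn@mHSA replicate 1 (-0.15), PBS replicate 1 (-0.14) or without PBS replicate 3 (-0.14). Prc1, the bundler of the central spindle, was lower with P-Mn@mHSA (0.794 times, adjusted p = 0.00214) and not called with P-Mn/TI@mHSA (0.919 times, adjusted p = 0.219). Its log2 fold change turned to 0.29 with P-Mn/TI@mHSA and was -0.04 with P-Mn@mHSA once the GC trend was removed, where the second was not called.

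Among the 8 kinesins, 5 were lower, 1 higher and 2 not called in each comparison with PBS. Kif20b, a motor of late cytokinesis, had 4.13, 7.05 and 5.49 CPM with P-Mn/TI@mHSA and 4.54, 6.14 and 4.62 CPM with P-Mn@mHSA, against 16.8, 23.9 and 16.4 CPM with PBS. It fell 3.42-fold with P-Mn/TI@mHSA (adjusted p = 9.3e-08) and 3.73-fold with P-Mn@mHSA (adjusted p = 5.11e-08), the next largest fall after Cenpe with P-Mn/TI@mHSA and with P-Mn@mHSA. Kif11, the motor that pushes the spindle poles apart, had 22.6, 23.4 and 22.04 CPM with P-Mn/TI@mHSA and 20.8, 24.4 and 20.6 CPM with P-Mn@mHSA, against 36.03, 40.6 and 32.8 CPM with PBS. Kif15, which can do the same work when Kif11 is blocked, had 13.9, 15.9 and 16.01 CPM with P-Mn/TI@mHSA and 14.6, 16.1 and 11.4 CPM with P-Mn@mHSA, against 23.2, 24.3 and 20.2 CPM with PBS. Neither gene's particle libraries reached the PBS range, and the log2 fold changes were -0.68 ± 0.10 and -0.56 ± 0.13 with P-Mn/TI@mHSA and -0.73 ± 0.10 and -0.68 ± 0.13 with P-Mn@mHSA. Kif18b, which shortens astral microtubules, had 70.1, 59.6 and 66.4 CPM with P-Mn/TI@mHSA and 55.8, 41.5 and 59.3 CPM with P-Mn@mHSA, against 42.1, 39.97 and 45.9 CPM with PBS. It was the only kinesin called higher, 1.53-fold with P-Mn/TI@mHSA (adjusted p = 4.15e-05) and 1.22-fold with P-Mn@mHSA (adjusted p = 0.0276), where 1 of the P-Mn@mHSA libraries lay within the PBS range. The call with P-Mn@mHSA was lost with the GC trend removed (adjusted p = 0.151) and without P-Mn@mHSA replicate 1 (0.24), P-Mn@mHSA replicate 3 (0.19), PBS replicate 1 (0.28) or without PBS replicate 2 (0.25). Kif23, the motor of centralspindlin, was 0.807 times the PBS level with P-Mn/TI@mHSA and 0.809 times with P-Mn@mHSA. Kif4, the chromokinesin of the central spindle, was 0.717 and 0.705 times. Kif20a and Kif2c, motors of cytokinesis and of kinetochore microtubule disassembly, were not called, at 0.996 and 1.12 times with P-Mn/TI@mHSA and 0.907 and 0.94 times with P-Mn@mHSA. Without a call, the P-Mn/TI@mHSA libraries of Kif2c all lay above PBS (adjusted p = 0.0629). The P-Mn@mHSA libraries of Kif20a all lay below it (adjusted p = 0.108). With the GC trend removed Kif11, Kif15 and Kif23 were no longer lower with P-Mn/TI@mHSA (adjusted p = 0.0758, 0.417 and 0.155), nor was Kif23 with P-Mn@mHSA (adjusted p = 0.0575).

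The spindle checkpoint was divided. Of 5 members, 3 were lower and 1 higher in each comparison with PBS. Of all genes, 27.3% were lower and 27.1% higher with P-Mn/TI@mHSA, and 24.1% and 24.3% with P-Mn@mHSA. The 1 member higher is thus not above the share of all genes. Ttk, the kinase that starts the checkpoint signal, had 9.62, 9.199 and 13.7 CPM with P-Mn/TI@mHSA and 7.92, 12.6 and 9.304 CPM with P-Mn@mHSA, against 18.98, 21.3 and 17.1 CPM with PBS. It was 1.76-fold lower with P-Mn/TI@mHSA (adjusted p = 0.000277) and 1.92-fold lower with P-Mn@mHSA (adjusted p = 8.48e-05). Bub1, a kinetochore kinase of the checkpoint, had 32.9, 41.95 and 34.4 CPM with P-Mn/TI@mHSA and 37.5, 47.3 and 36.6 CPM with P-Mn@mHSA, against 63.4, 60.6 and 49.02 CPM with PBS. It fell by 0.66 on the log2 scale with P-Mn/TI@mHSA and by 0.51 with P-Mn@mHSA, calls that were both lost with the GC trend removed (adjusted p = 0.371 and 0.339). Bub3, the partner that brings both Bub1 and BubR1 to kinetochores, had 282, 276 and 294 CPM with P-Mn/TI@mHSA and 283, 267 and 277 CPM with P-Mn@mHSA, against 222, 217 and 221 CPM with PBS. It rose by 0.37 ± 0.0565 on the log2 scale with P-Mn/TI@mHSA (adjusted p = 1.15e-05) and by 0.33 ± 0.0566 with P-Mn@mHSA (adjusted p = 6.19e-05), so Bub1 and Bub3 moved in opposite directions in the same libraries. Bub1b, which encodes BubR1, had 175, 164 and 170.4 CPM with P-Mn/TI@mHSA and 148, 135 and 146 CPM with P-Mn@mHSA, against 152, 167 and 166 CPM with PBS. It was lower with P-Mn@mHSA (-0.18 ± 0.0631, adjusted p = 0.0262), a call lost without P-Mn@mHSA replicate 2 (-0.13), PBS replicate 2 (-0.15) or without PBS replicate 3 (-0.16). It was not called with P-Mn/TI@mHSA (0.07 ± 0.0627, adjusted p = 0.343). Mad2l1, which encodes the checkpoint effector MAD2, was 0.819 times the PBS level with P-Mn/TI@mHSA (adjusted p = 0.0166) and 0.899 times with P-Mn@mHSA (adjusted p = 0.202). The first call was lost without P-Mn/TI@mHSA replicate 1 (-0.27), P-Mn/TI@mHSA replicate 2 (-0.27) or without PBS replicate 1 (-0.25). With the GC trend removed Mad2l1 turned to higher in both, by 0.34 (adjusted p = 0.00253) and 0.29 (adjusted p = 0.00734).

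Of the 9 kinases, phosphatases and cyclins of mitotic entry, 5 were higher and 1 lower with P-Mn/TI@mHSA, where 27.1% of all genes were higher. With P-Mn@mHSA 3 were higher, 1 lower and 5 not called, a share higher that is close to the 24.3% of all genes. Plk1, the Polo kinase that drives entry and centrosome maturation, had 141, 133 and 146 CPM with P-Mn/TI@mHSA and 120.3, 116 and 132 CPM with P-Mn@mHSA, against 107, 103 and 107 CPM with PBS. It rose 1.33-fold with P-Mn/TI@mHSA (adjusted p = 2.54e-05) and 1.16-fold with P-Mn@mHSA (adjusted p = 0.0106), and the groups did not overlap. Ccnb2, a B-type cyclin, had 110.2, 111 and 118 CPM with P-Mn/TI@mHSA and 101, 95.5 and 103 CPM with P-Mn@mHSA, against 81.1, 81.3 and 84.2 CPM with PBS. Its 3 groups were fully separate, with a log2 fold change of 0.46 ± 0.0653 with P-Mn/TI@mHSA (adjusted p = 4.16e-06) and 0.28 ± 0.0656 with P-Mn@mHSA (adjusted p = 0.0014). Cdc25b, a phosphatase that activates CDK1, had 116, 106 and 108 CPM with P-Mn/TI@mHSA and 105, 86.3 and 100.1 CPM with P-Mn@mHSA, against 78.9, 86.02 and 88.1 CPM with PBS. It rose by 0.38 ± 0.0769 with P-Mn/TI@mHSA and by 0.20 ± 0.0772 with P-Mn@mHSA. Aurka, the kinase of the spindle poles, had 161, 152 and 162 CPM with P-Mn/TI@mHSA and 145, 139 and 143 CPM with P-Mn@mHSA, against 134, 129.8 and 129.8 CPM with PBS. It rose with P-Mn/TI@mHSA (0.27 ± 0.0592, adjusted p = 0.000555) and missed the threshold with P-Mn@mHSA (0.12 ± 0.0594, adjusted p = 0.112), although all 6 particle libraries lay above PBS. Cdk1, the master kinase of mitosis, had 113, 113 and 135 CPM with P-Mn/TI@mHSA and 114, 119 and 100.1 CPM with P-Mn@mHSA, against 108, 99.1 and 108 CPM with PBS. The P-Mn/TI@mHSA libraries lay above PBS (0.19 ± 0.0798, adjusted p = 0.0451), a call lost without P-Mn/TI@mHSA replicate 3 (0.11), P-Mn@mHSA replicate 1 (0.20), PBS replicate 1 (0.22), PBS replicate 2 (0.15) or without PBS replicate 3 (0.21). The P-Mn@mHSA libraries overlapped PBS (0.08 ± 0.0801, adjusted p = 0.431). Ccnb1, the other B-type cyclin measured, was lower, at 0.856 times the PBS level with P-Mn/TI@mHSA and 0.845 times with P-Mn@mHSA. Of the 50-base stretches of its transcripts, 23.4% also occur in another gene, mostly the pseudogene Ccnb1-ps, so its counts are less certain than those of Ccnb2. With the GC trend removed its log2 fold changes were 0.12 and 0.004, and neither was called. Ccna2, the phosphatase Cdc25c and the centrosome kinase Nek2 were not called in either comparison, at 0.937 to 1.13 times the PBS level with P-Mn/TI@mHSA and 0.875 to 0.975 times with P-Mn@mHSA. Plk1 and Cdc25b, with the GC trend removed, stayed called with P-Mn/TI@mHSA and not with P-Mn@mHSA (adjusted p = 0.205 and 0.261). The P-Mn@mHSA call of Plk1 was also lost without P-Mn@mHSA replicate 3 (0.16), and that of Cdc25b without P-Mn@mHSA replicate 1 (0.15), P-Mn@mHSA replicate 3 (0.18), PBS replicate 1 (0.16) or without PBS replicate 2 (0.22).

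The chromosomal passenger complex, which corrects wrong attachments, had 3 of 4 members higher and 0 lower with P-Mn/TI@mHSA, and 1 higher and 1 lower with P-Mn@mHSA. Aurkb, its kinase, had 103, 107 and 113 CPM with P-Mn/TI@mHSA and 99.1, 88.2 and 96.7 CPM with P-Mn@mHSA, against 74.4, 75.2 and 83.7 CPM with PBS. It rose 1.38-fold with P-Mn/TI@mHSA (adjusted p = 1.26e-05) and 1.22-fold with P-Mn@mHSA (adjusted p = 0.00274). Incenp, the scaffold, had 175, 179 and 179 CPM with P-Mn/TI@mHSA and 144, 145 and 153 CPM with P-Mn@mHSA, against 142, 140 and 147 CPM with PBS. Only the P-Mn/TI@mHSA libraries lay wholly above PBS (0.32 ± 0.0581, adjusted p = 9.82e-05), and P-Mn@mHSA was not called (0.05 ± 0.0584, adjusted p = 0.543). Cdca8, which encodes Borealin, the subunit that binds the centromere together with survivin, had 107, 116 and 124 CPM with P-Mn/TI@mHSA and 97.7, 89.1 and 87.9 CPM with P-Mn@mHSA, against 101, 99.8 and 101 CPM with PBS. It was higher with P-Mn/TI@mHSA (0.20 ± 0.0691, adjusted p = 0.0176), a call lost without P-Mn/TI@mHSA replicate 2 (0.19) or without P-Mn/TI@mHSA replicate 3 (0.15). Its P-Mn@mHSA libraries lay just below PBS without a call (-0.13 ± 0.0698, adjusted p = 0.123). Birc5, which encodes survivin, was 1.02 times the PBS level with P-Mn/TI@mHSA (adjusted p = 0.808) and 0.831 times with P-Mn@mHSA (adjusted p = 0.0123), which was not called with the GC trend removed (adjusted p = 0.0869).

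The 4 anaphase genes were all higher with P-Mn/TI@mHSA, and 2 were higher with P-Mn@mHSA. Pttg1, which encodes securin, the inhibitor of separase, had 51.7, 64 and 64.9 CPM with P-Mn/TI@mHSA and 59.4, 65.3 and 55.9 CPM with P-Mn@mHSA, against 50.6, 48.9 and 47.5 CPM with PBS. It rose 1.23-fold with each kind of particle (adjusted p = 0.00709 with P-Mn/TI@mHSA and 0.00831 with P-Mn@mHSA). Espl1, which encodes separase, the protease that cuts cohesin, had 159.5, 149 and 154 CPM with P-Mn/TI@mHSA and 119.7, 95.3 and 121 CPM with P-Mn@mHSA, against 113, 129.6 and 126 CPM with PBS. It rose with P-Mn/TI@mHSA (0.33 ± 0.0802, adjusted p = 0.00161) and was not called with P-Mn@mHSA (-0.14 ± 0.081, adjusted p = 0.179), although it was called lower there with the GC trend removed (-0.26, adjusted p = 0.00752). Cdc20, the activator of the anaphase-promoting complex, had 169, 159 and 176 CPM with P-Mn/TI@mHSA and 152, 146 and 136 CPM with P-Mn@mHSA, against 151, 143 and 144 CPM with PBS. Its rise with P-Mn/TI@mHSA was small (0.20 ± 0.0632, adjusted p = 0.0115), and 10.4% of its 50-base stretches occur in another gene. Ube2c, the ubiquitin-conjugating enzyme of that complex, had 134, 127 and 156 CPM with P-Mn/TI@mHSA and 142, 135 and 130.1 CPM with P-Mn@mHSA, against 119, 114 and 125 CPM with PBS. It rose by 0.22 ± 0.0739 with P-Mn/TI@mHSA and by 0.19 ± 0.0741 with P-Mn@mHSA, and 15.1% of its stretches match Tnnc2 on the opposite strand. With P-Mn/TI@mHSA the call of Cdc20 was lost without P-Mn/TI@mHSA replicate 3 (0.17) and that of Ube2c without P-Mn/TI@mHSA replicate 3 (0.13) or without PBS replicate 2 (0.18). With P-Mn@mHSA the call of Ube2c was lost without P-Mn@mHSA replicate 1 (0.16), PBS replicate 1 (0.19) or without PBS replicate 2 (0.15). Once the GC trend was removed, Cdc20, Ube2c and Espl1 were not called with P-Mn/TI@mHSA (adjusted p = 0.637, 0.497 and 0.0728), nor Ube2c with P-Mn@mHSA (adjusted p = 0.446).

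Of the 3 cytokinesis genes, 2 were lower in each comparison with PBS, and 1 was higher with P-Mn/TI@mHSA. Anln, which encodes anillin, the scaffold of the contractile ring, had 84.2, 88.01 and 95.7 CPM with P-Mn/TI@mHSA and 82.7, 81.3 and 80.04 CPM with P-Mn@mHSA, against 114, 111 and 109.5 CPM with PBS. It fell by 0.32 on the log2 scale with P-Mn/TI@mHSA (adjusted p = 0.000346) and by 0.46 with P-Mn@mHSA (adjusted p = 9.49e-06). Ect2, the exchange factor that activates RhoA at the division plane, had 33.1, 41.1 and 34.03 CPM with P-Mn/TI@mHSA and 38.6, 35.2 and 32.3 CPM with P-Mn@mHSA, against 46.7, 52.3 and 38.1 CPM with PBS. Both particle groups overlapped PBS, although both were called (-0.34 ± 0.11 with P-Mn/TI@mHSA, -0.37 ± 0.11 with P-Mn@mHSA). The call with P-Mn/TI@mHSA was lost without P-Mn/TI@mHSA replicate 1 (-0.28), P-Mn/TI@mHSA replicate 3 (-0.30) or without PBS replicate 2 (-0.23), and that with P-Mn@mHSA without PBS replicate 2 (-0.26). With the GC trend removed Ect2 turned to called higher with P-Mn/TI@mHSA (0.28, adjusted p = 0.0181). With P-Mn@mHSA it was then not called (0.08, adjusted p = 0.51). Anln was no longer called with P-Mn/TI@mHSA under that step (adjusted p = 0.475). Racgap1, the partner of Kif23 in centralspindlin, had 147, 138 and 149.5 CPM with P-Mn/TI@mHSA and 125, 113 and 123 CPM with P-Mn@mHSA, against 129, 125 and 127 CPM with PBS. It was higher with P-Mn/TI@mHSA (0.19 ± 0.0629, adjusted p = 0.0148), a call lost without P-Mn/TI@mHSA replicate 3 (0.17) or without PBS replicate 2 (0.17). It was not called with P-Mn@mHSA (-0.08 ± 0.0633, adjusted p = 0.335), while Kif23 was lower with both.

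The change of a member went with the GC content of its longest annotated transcript. Across the 55 members, Spearman's rho between log2 fold change and GC content was 0.81 with P-Mn/TI@mHSA and 0.76 with P-Mn@mHSA, against 0.49 and 0.39 across 12309 genes with a GC value. These are correlations across genes that share the same libraries, and carry no p. Median GC content was 42.8% in the members that fell and 52.5% in those that rose with P-Mn/TI@mHSA, and 43.3% and 54.0% with P-Mn@mHSA. The ranges overlapped, at 34.8 to 49.2% for members that fell and 45.998 to 56.1% for those that rose with P-Mn/TI@mHSA, and 34.8 to 50.4% and 45.998 to 56.0% with P-Mn@mHSA. The 10 members under 42% GC had a median log2 fold change of -0.99 with P-Mn/TI@mHSA and -0.82 with P-Mn@mHSA, against -0.60 and -0.42 over all genes of that band. The 17 members between 42 and 46% GC had medians of -0.60 with P-Mn/TI@mHSA and -0.55 with P-Mn@mHSA, against -0.28 and -0.19 over all genes there. In these bands the members' median lay further below 0 than that of all genes. The 15 members between 46 and 50% GC had a median of -0.002 with P-Mn/TI@mHSA, against -0.022 over all genes there. Of these members 5 were lower, 6 higher and 4 not called, where 24.1% of all genes of that band were lower and 22.1% higher. With P-Mn@mHSA their median was -0.14, against -0.019 over all genes there. Then 7 were lower, 2 higher and 6 not called, where 21.9% of all genes of that band were lower and 20.5% higher. The 13 members over 50% GC had medians of 0.32 with P-Mn/TI@mHSA and 0.12 with P-Mn@mHSA, against 0.20 and 0.15 over all genes there. Gene length went with the change as well, with rho -0.52 across members in both comparisons and -0.08 with P-Mn/TI@mHSA and -0.15 with P-Mn@mHSA across all 12454 genes.

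**Figure D4:**
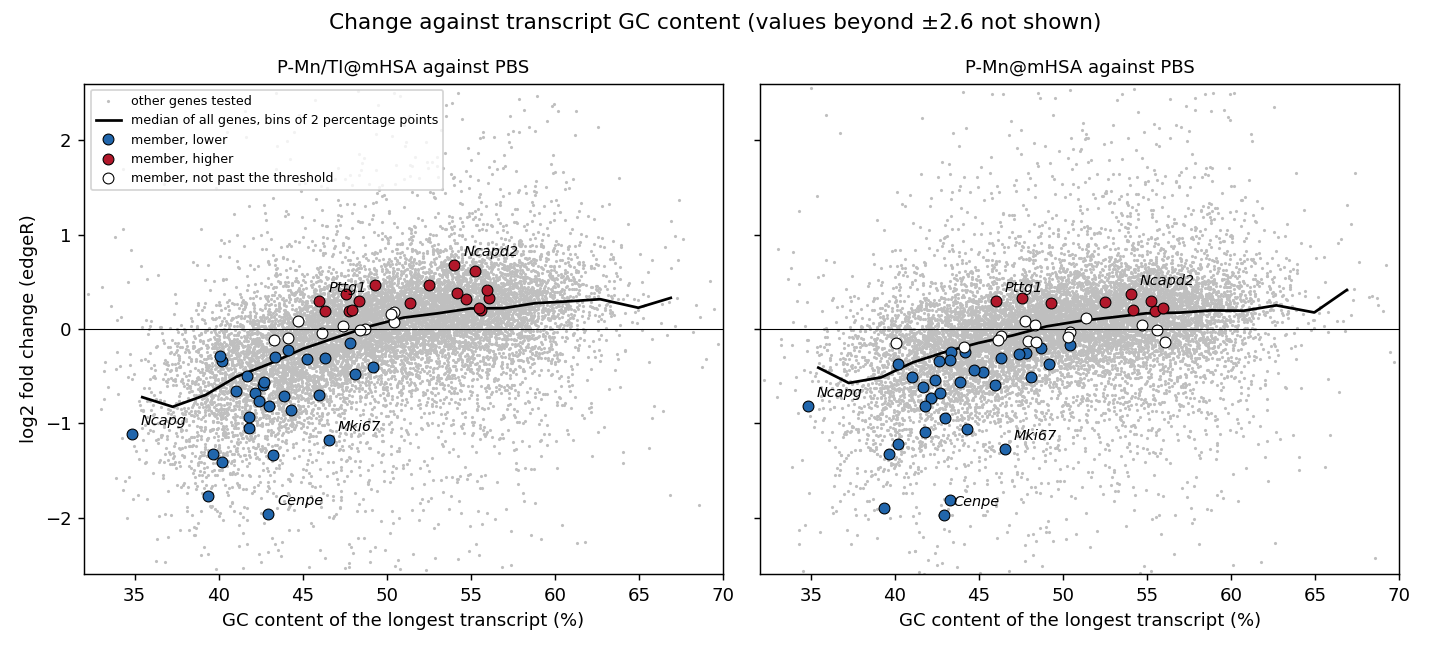
Log2 fold change against PBS (y axis) against GC content of the longest transcript in percent (x axis), with 1 panel for P-Mn/TI@mHSA and 1 for P-Mn@mHSA; grey points are the other genes tested, the line is the median of all genes in bins of GC content, and large points are the 55 members, blue where lower, red where higher and white where not called. Values lie higher at higher GC content in members (Spearman's rho 0.81 and 0.76) and in all genes (0.49 and 0.39).

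When each library's trend of level against GC content was removed, 15 members stayed lower with P-Mn/TI@mHSA, all among the 28 called without that step, and 19 were higher, 14 of them among the 17. Of all genes, 18.4% were lower and 29.8% higher in that fit. With P-Mn@mHSA, 20 were then lower, 19 of them among the 32, and 6 higher, 5 of them among the 9, where 18.1% of all genes were lower and 27.1% higher. The members' median turned to 0.06 with P-Mn/TI@mHSA and was -0.13 with P-Mn@mHSA. Over all genes, the same step raised the share of higher among the calls to 61.8% with P-Mn/TI@mHSA and 59.9% with P-Mn@mHSA, against 49.8% and 50.2% without it. Cenpe, Cenpf, Kif20b, Kif4, Nusap1, Ckap2l, Ckap5, Hmmr, Aspm, Dlgap5, Smc2, Smc4, Mki67 and Ttk were lower in both comparisons also with the trend removed. Cenpe then had log2 fold changes of -1.53 with P-Mn/TI@mHSA and -1.66 with P-Mn@mHSA. For Kif20b they were -1.11 and -1.42, for Mki67 -0.999 and -1.14, for Smc2 -0.68 and -0.85, and for Smc4 -0.79 and -0.76. Ccnb2, Bub3, Aurkb, Ncapd2, Pttg1 and Mad2l1 were higher in both comparisons with the trend removed. Mad2l1 had been called lower with P-Mn/TI@mHSA without that step and not called with P-Mn@mHSA. Ccna2, which was not called without that step, was then higher with P-Mn/TI@mHSA (0.15, adjusted p = 0.0426). So were Oip5 (0.39, adjusted p = 0.0197) and Prc1 (0.29, adjusted p = 0.00849), also not called there without it. Ect2, called lower with P-Mn/TI@mHSA without that step, was then called higher (0.28, adjusted p = 0.0181). The part of GC content in these changes was not tested beyond this step.

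The particle groups were compared directly with each other, P-Mn/TI@mHSA over P-Mn@mHSA. The labels give no dose, so the inhibitor cannot be told apart from other differences between the preparations. Here 7 of the 55 members were higher and 0 lower, where 1.48% of all genes tested were higher and 2.34% lower (3.82% in either direction). None of the 55 changed 1.5-fold or more with a call, as 0.0642% of all genes did upward and 0.634% downward. By edgeR at an unadjusted p under 0.05, 21 members were higher and 2 lower, where 9.23% of all genes were higher and 10.9% lower by that rule, and DESeq2 and limma on log2(FPKM + 1) also called 0 lower. The members' median log2 fold change was 0.11, against -0.007 over all genes, and 41 of 55 values were above 0. In 23 members every P-Mn/TI@mHSA library lay above every P-Mn@mHSA library (12.3% of all genes did so), and in 2, Smc4 and Ckap2, every one lay below (11.7% of all genes). The 7 came from 6 roles. Espl1 was 1.38-fold higher (adjusted p = 0.00221), with means of 154 ± 5.07 CPM with P-Mn/TI@mHSA and 112 ± 14.4 CPM with P-Mn@mHSA (SD, n = 3 each). Of the passenger complex, Cdca8 was 1.26-fold higher (adjusted p = 0.0093) and Incenp 1.21-fold higher (adjusted p = 0.0111). Ncapd2 was 1.24-fold higher (adjusted p = 0.0111), Racgap1 1.2-fold (adjusted p = 0.0217), Bub1b 1.19-fold (adjusted p = 0.0313) and Oip5 1.44-fold (adjusted p = 0.044). In Espl1, Cdca8, Incenp, Ncapd2 and Racgap1 the P-Mn/TI@mHSA libraries also lay above PBS, and in Bub1b and Oip5 they overlapped it. Of the 9 fits that each left out 1 library, Espl1 was called in 9. The call of Cdca8 was lost without P-Mn/TI@mHSA replicate 3 (0.28) and that of Ncapd2 without P-Mn/TI@mHSA replicate 1 (0.29). The call of Incenp was lost without P-Mn/TI@mHSA replicate 1 (0.28), P-Mn/TI@mHSA replicate 3 (0.27) or without P-Mn@mHSA replicate 1 (0.26), and that of Racgap1 without P-Mn/TI@mHSA replicate 1 (0.25), P-Mn/TI@mHSA replicate 3 (0.24) or without P-Mn@mHSA replicate 2 (0.22). Bub1b was called in 4 fits and lost without P-Mn/TI@mHSA replicate 1 (0.23), P-Mn/TI@mHSA replicate 2 (0.27), P-Mn/TI@mHSA replicate 3 (0.25), P-Mn@mHSA replicate 1 (0.28) or without P-Mn@mHSA replicate 2 (0.21). Oip5 was called only in the fit without PBS replicate 1. The count of higher members was 2 without P-Mn/TI@mHSA replicate 3, 3 without its replicate 1, and 4 without P-Mn@mHSA replicate 1 or 2. Without P-Mn@mHSA replicate 3 it was 8, and Ncapg was then called lower (log2 fold change -0.41). Of the members that fell most against PBS, Cenpe, Kif20b, Smc2 and Mki67 differed between the particle groups by 0.01 ± 0.16, 0.13 ± 0.21, -0.001 ± 0.11 and 0.10 ± 0.11 on the log2 scale (SE), with no call. Across members, Spearman's rho of this difference with GC content was 0.6, against 0.32 over all genes, and with the GC trend removed 10 members were higher, the 7 among them, and 0 lower, where 1.36% of all genes were higher and 1.66% lower.

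**Figure D5:**
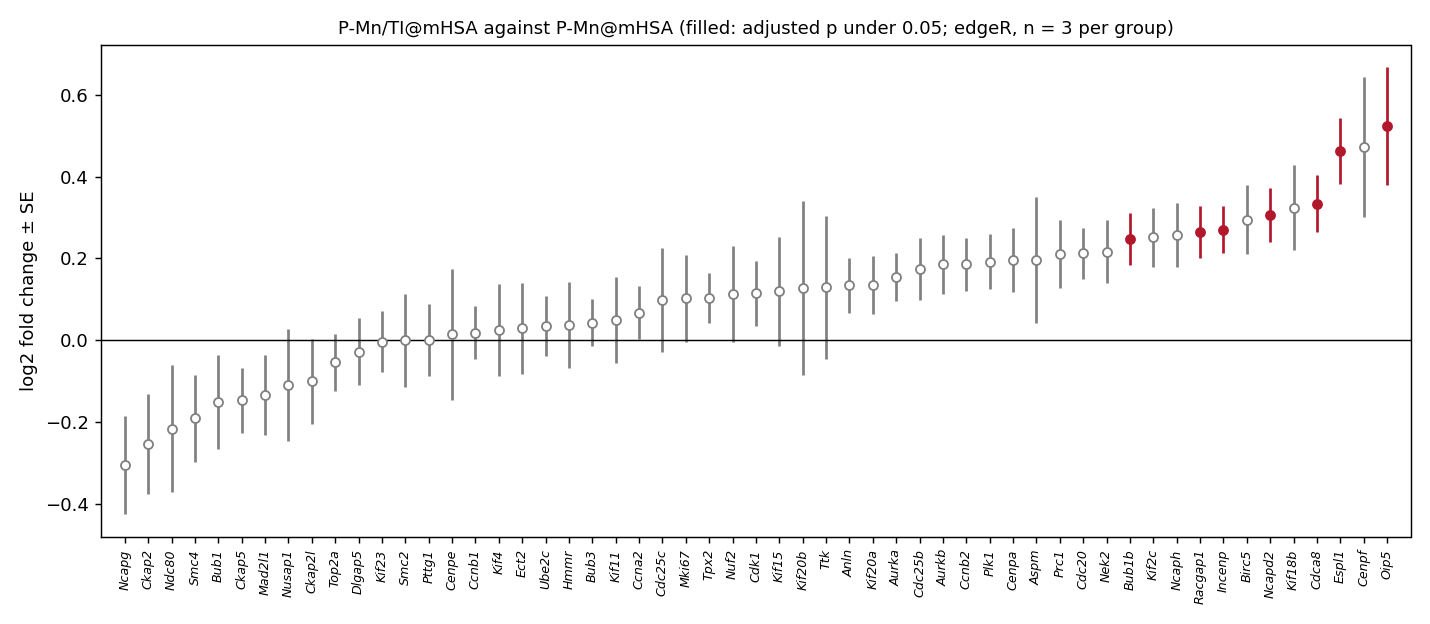
Log2 fold change of P-Mn/TI@mHSA over P-Mn@mHSA (y axis, points with standard error) for the 55 members in order of size along the x axis; filled points have an adjusted p under 0.05 (edgeR, n = 3 per group). The values run from -0.31 for Ncapg to 0.52 for Oip5, 41 lie above 0, and the 7 filled points are all above 0.

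Other genes of the pathway were counted over whole lists, and the genes named from them are those with the lowest p. The counts stand beside 27.3% lower and 27.1% higher over all genes with P-Mn/TI@mHSA, and 24.1% lower and 24.3% higher with P-Mn@mHSA. Calls of these lists, and of those in the next paragraph, were not checked with the GC trend removed. Of all genes under 42% GC, 69.1% were lower with P-Mn/TI@mHSA and 55.2% with P-Mn@mHSA. Of those over 50% GC, 10.9% and 11.8% were lower. Cohesin and condensin II genes were mostly lower, 9 of 13 with 2 higher with P-Mn/TI@mHSA, and 9 with 1 higher with P-Mn@mHSA. The 2 with the lowest p were Nipbl, which loads cohesin (2.61-fold lower with P-Mn/TI@mHSA and 2.4-fold with P-Mn@mHSA), and Wapl, which releases it (2.23-fold and 1.97-fold lower). Of 33 further kinetochore genes, 14 were lower and 5 higher with P-Mn/TI@mHSA, and 17 lower and 5 higher with P-Mn@mHSA. Knl1, the platform for Bub1 and Bub3, was 2.74-fold lower with P-Mn/TI@mHSA and 3.91-fold with P-Mn@mHSA, while Hjurp, the chaperone of Cenpa, was 1.64-fold and 1.43-fold higher. Of 30 centrosome and spindle genes, 12 were lower and 8 higher with P-Mn/TI@mHSA, and 13 lower and 6 higher with P-Mn@mHSA. Cep55, a protein of the midbody, was 2.04-fold and 1.93-fold lower. Of 17 subunits of the anaphase-promoting complex, 6 were higher, 2 lower and 9 not called in each comparison, a share higher that is not far from that of all genes, Anapc5 being 1.44-fold higher with P-Mn/TI@mHSA and 1.31-fold with P-Mn@mHSA and Cdc27 1.8-fold and 1.63-fold lower. Of 36 DNA replication genes, which act in S phase, 23 were higher and 4 lower with P-Mn/TI@mHSA, and 17 were higher, 4 lower and 15 not called with P-Mn@mHSA. Other regulators of mitotic entry numbered 7 higher and 4 lower of 13 with P-Mn/TI@mHSA, and 5 and 5 with P-Mn@mHSA.

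Transcription factors of the cell cycle were higher in 12 and lower in 5 of 23 with P-Mn/TI@mHSA, and higher in 7 and lower in 5 with P-Mn@mHSA. Of all genes, 27.1% were higher and 27.3% lower with P-Mn/TI@mHSA, and 24.3% and 24.1% with P-Mn@mHSA. The numbers lower, and the number higher with P-Mn@mHSA, were not far from these shares. Mybl2, which encodes the activator B-MYB, was 1.5-fold higher with P-Mn/TI@mHSA (206 to 225 CPM, against 131 to 154 CPM with PBS). Nfyc, a subunit of NF-Y, was 1.4-fold higher with P-Mn/TI@mHSA and 1.38-fold with P-Mn@mHSA. Foxm1 was the transcription factor of this list with the lowest p between the particle groups, at 153 to 157 CPM with P-Mn/TI@mHSA and 113 to 135 CPM with P-Mn@mHSA, a 1.26-fold difference (adjusted p = 0.0129). Of 5 inhibitors of cyclin-dependent kinases that could be tested, 2 were higher and 2 lower with P-Mn/TI@mHSA, and 2 higher and 0 lower with P-Mn@mHSA. The higher ones were Cdkn1a, which encodes p21, and Cdkn2c, which was 1.33-fold higher with P-Mn/TI@mHSA and 1.37-fold with P-Mn@mHSA.

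Levels of different genes can be set side by side per gene length. In FPKM, the deposited unit scaled by gene length and library, Cdc20 was highest in every group, at 89.3 with P-Mn/TI@mHSA and 77.1 with P-Mn@mHSA, against 77.6 with PBS, and Ccnb2, Aurka, Plk1 and Ube2c followed among the first 5 in every group. Cenpf was lowest in every group, at 0.647 with P-Mn/TI@mHSA and 0.467 with P-Mn@mHSA, against 1.63 with PBS. Kif20b, which also fell strongly, had 0.794 with P-Mn/TI@mHSA and 0.729 with P-Mn@mHSA, against 2.72 with PBS, rank 54, 54 and 51 of 55. For some members counts are less certain, since part of their transcripts matches another gene and no source used here states how strand was handled. Besides Ccnb1 and Cdc20, 6.56% of Plk1 matches Plk-ps1. On the opposite strand, 25.2% of Kif20a matches Cdc23, 14.2% of Kif4 matches Pdzd11 and 11.8% of Ncapg matches Lcorl, and smaller shares (5.58 to 11.7%) of Cdc25c, Ccna2, Prc1, Oip5 and Nek2 match other genes.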

How the data were processed

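The authors deposited 1 table with a raw read count and an FPKM value per gene and library. GRCm38, cutadapt 1.9 and FastQC are named, per the submitters' processing notes. Aligner, counter and strand handling were not given in the sources used here. Every sample column belonged to the 9 libraries.

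Counts were filtered with filterByExpr, which kept 12454 genes, scaled by TMM and fitted with 1 mean per group over all 9 libraries (edgeR 4.0.16 quasi-likelihood, R 4.3.3, 6 residual degrees of freedom, two-sided). Standard errors are the absolute log2 fold change over the square root of F. Levels are TMM-scaled CPM, and the deposited FPKM served for levels between genes. DESeq2 1.42.0 and limma 3.58.1 on log2(FPKM + 1) were alternatives, with the others given in the closing section. GC content comes from the longest GENCODE M21 transcript of a gene and shared 50-base stretches from all its transcripts, joined by gene ID. The deposited gene coordinates do not match that annotation, so these values may not describe the exact transcripts that were counted.

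The members and the other gene lists were chosen with earlier results of these data known. Values per library are given for the 2 members of each role with the lowest p against PBS, members called and changed 1.5-fold or more, members called higher, and members called between the particle groups. Of each other list, the 2 genes with the lowest p could be named, and only some of them are.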

Additional observations from a re-analysis of the deposited data

How the results depend on the processing

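Direction and call of most results held under the alternatives, which were RLE size factors, DESeq2, limma on log2(FPKM + 1), no low-count filter, only the groups compared, a length trend removed, and each library left out; removal of the GC trend and limma on log2(TPM + 1) were chosen after seeing the data. With the GC trend removed, members lower numbered 15 in P-Mn/TI@mHSA against PBS (28 without) and 20 in P-Mn@mHSA against PBS (32 without). The same step reversed Ccnb1 (0.12 with P-Mn/TI@mHSA, 0.004 with P-Mn@mHSA), Mad2l1 (0.34 and 0.29), Ect2 (0.28 and 0.082) and Top2a (0.11 and 0.049). With P-Mn/TI@mHSA it also reversed Ccna2 (0.15), Nuf2 (0.023) and Prc1 (0.29). Of these reversed genes, Mad2l1 was then called higher in both comparisons, and Ect2, Ccna2 and Prc1 with P-Mn/TI@mHSA. On TPM, 3 members were higher with P-Mn@mHSA against PBS (9 in the edgeR fit). For P-Mn/TI@mHSA over P-Mn@mHSA, members higher (7 in the edgeR fit) numbered 11 by DESeq2, 4 by limma on FPKM, 12 with the length trend removed and 3 on TPM. The cause was not tested for any of these.

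Leaving out 1 library gave 25 to 28 lower and 12 to 19 higher members for P-Mn/TI@mHSA against PBS, 27 to 32 lower and 6 to 9 higher for P-Mn@mHSA against PBS, and 0 to 1 lower and 2 to 8 higher for P-Mn/TI@mHSA over P-Mn@mHSA. In these fits the spread of a gene was estimated over all groups together, as in the main fit, also where a group was left with 2 libraries. Same-numbered libraries did not deviate together over all genes tested (correlations -0.066 to 0.061). With 3 libraries per group this cannot exclude that the numbers pair libraries, and the labels do not say. With the replicate block, members lower and higher were 27 and 16 for P-Mn/TI@mHSA against PBS, and 32 and 9 for P-Mn@mHSA against PBS. For P-Mn/TI@mHSA over P-Mn@mHSA they were 0 and 6, 5 of the 6 among the 7. Of all calls, the share that was higher was 42.7% on TPM with P-Mn/TI@mHSA against PBS and 36% with P-Mn@mHSA against PBS (49.8% and 50.2% in the edgeR fit). Between the particle groups it was 25% on TPM and 27.1% by limma on FPKM (38.7% in the edgeR fit). Depth limits the precision of members with few counts, such as Kif20b (61 in its lowest library).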
